A study of Mus musculus with 12 samples.

Results

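Camk2b, Homer2, Epb41l3, Aqp5, Car4, Cd3e, Cyyr1 and Castor1 are genes best known from differentiated tissues. They were picked for a lower signal in mouse embryonic stem cells labelled as Dppa2 and Dppa4 knockouts and a higher mean once the proteins were put back, a difference that passed the test for 4 of them with the wild-type proteins and for 5 with a mutant pair. They were 8 of the 22180 genes measured by a probe set with a single gene symbol, and all 8 symbols had such a probe set. The 12 arrays formed 4 groups of 3, named here KO+WT, KO+Mut, KO and parental. All cells, kept in serum replacement medium with LIF, carried a tdTomato reporter driven by MERVL, a retroviral element that is active in 2-cell embryos. Parental cells had no further change, and KO cells are labelled as knocked out for Dppa2 and Dppa4. KO+WT cells were KO cells transfected with plasmids for wild-type Dppa2 and Dppa4, and KO+Mut cells had received SUMO-deficient versions of the pair. SUMO is a small protein attached to other proteins, and the plasmid-encoded proteins carried GFP. The add-back cells had been sorted for GFP, a step the labels give for no other group, and the add-back was a transfection and not a repaired gene. The labels do not say whether the KO cells came from 1 clone. Arrays of a group are labelled biological replicates with no further detail, so the p-values measure the spread between these samples.

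Dppa2 and Dppa4 form a pair of small DNA-binding proteins found in early embryos, pluripotent cells and germ cells. In embryonic stem cells they are known for switching on genes of the 2-cell stage and for keeping CG-rich promoters of silent or weakly active developmental genes from gaining DNA methylation. The 8 genes have no shared pathway. Camk2b and Homer2 encode a kinase subunit and a scaffold of synapses, and Epb41l3 encodes an adaptor between membrane proteins and the spectrin-actin skeleton. Aqp5 encodes a water channel of glands and lung, Car4 a carbonic anhydrase on the cell surface, Cd3e a signalling chain of the T-cell receptor and Cyyr1 a small membrane protein of little-known function. Castor1 encodes a cytosolic arginine sensor that restrains mTORC1, the growth kinase complex.

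The genes were chosen by their measured signals, a fall in KO cells and a rise with add-back, so these differences are descriptions and support nothing by themselves. Values are the log2 array signals that the authors deposited. Array medians lay between 3.73 and 3.88, and on the arrays of KO cells the 8 signals ranked between percentiles 42.5 and 77.9 of all probe sets. Such ranks order signals and not RNA amounts, and log2 differences can understate the change of a gene near background. None of 10 pluripotency genes, Pou5f1, Nanog and Sox2 among them, passed in any of the 6 comparisons (limma, adjusted p under 0.05). Missed thresholds between groups do not show a cell type. Their mean signal was 8.66 ± 0.02 in KO+WT, 8.62 ± 0.05 in KO+Mut, 8.77 ± 0.04 in KO and 8.65 ± 0.01 in parental (log2, SD, n = 3 each). The KO arrays (8.74 to 8.82) lay above all others (8.57 to 8.68). In parental cells single genes ran from 4.08 for Dppa5a to 11.18 for Tdgf1. Dppa2 averaged 11.08 in KO+WT, 11.20 in KO+Mut, 8.48 in KO and 9.77 in parental cells, and Dppa4 10.39 in KO+WT, 10.54 in KO+Mut, 7.62 in KO and 8.46 in parental cells, so that both exceeded the parental level with either add-back. Signal for both remained among the stronger ones in KO cells, at mean percentiles 94.4 (Dppa2) and 89.7 (Dppa4). KO differed from parental cells by -1.29 for Dppa2 (adjusted p = 0.0259 by limma) and by -0.84 for Dppa4, which did not pass (adjusted p = 0.102). No source used here says whether the probes lie inside the deleted sequence, so these levels are no check of the deletion.

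The promoters of the 8 genes differed widely in CG content, the sequence feature by which Dppa2 and Dppa4 targets are usually described. All 8 genes matched RefSeq promoters of build GRCm38.p6, which run from 250 bases before to 50 bases after a start site. Homer2 had 2 such start sites and Epb41l3 had 3, which gave 11 promoters. Those of Camk2b, Homer2 (first site) and Aqp5 held 51, 49 and 46 CG pairs in 300 bases, percentiles 99.3, 99.0 and 98.4 of the 32851 promoters in the table, whose median was 7 and whose quartiles were 3 and 20. Castor1 held 21, the first and second sites of Epb41l3 held 16 and 18, and Car4 held 15. Cd3e with 8 and Cyyr1 with 6 lay near the median, and the second site of Homer2 and the third of Epb41l3 held 3 and 2. The files do not show which start site was in use. Below are a pair of CG-dense promoters, from genes that returned to or near the parental level, and the promoters of the 2 genes with the deepest falls, with every CG pair in capitals.

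Homer2, chr7:81706876-81707175, minus strand: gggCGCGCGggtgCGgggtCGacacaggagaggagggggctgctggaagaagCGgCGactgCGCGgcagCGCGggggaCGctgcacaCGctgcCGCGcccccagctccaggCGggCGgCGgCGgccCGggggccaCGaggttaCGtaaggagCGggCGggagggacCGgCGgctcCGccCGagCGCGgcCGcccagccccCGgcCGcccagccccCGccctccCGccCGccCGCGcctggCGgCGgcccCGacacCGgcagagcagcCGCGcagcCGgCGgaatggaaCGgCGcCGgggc

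Aqp5, chr15:99590778-99591077, plus strand: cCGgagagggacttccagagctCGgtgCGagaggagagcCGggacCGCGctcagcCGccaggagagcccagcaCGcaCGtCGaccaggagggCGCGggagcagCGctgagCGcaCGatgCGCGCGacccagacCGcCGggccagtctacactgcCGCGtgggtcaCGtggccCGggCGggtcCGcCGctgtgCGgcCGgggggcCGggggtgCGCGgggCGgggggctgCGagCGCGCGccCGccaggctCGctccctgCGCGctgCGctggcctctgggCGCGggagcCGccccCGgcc

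Car4, chr11:84957504-84957803, plus strand: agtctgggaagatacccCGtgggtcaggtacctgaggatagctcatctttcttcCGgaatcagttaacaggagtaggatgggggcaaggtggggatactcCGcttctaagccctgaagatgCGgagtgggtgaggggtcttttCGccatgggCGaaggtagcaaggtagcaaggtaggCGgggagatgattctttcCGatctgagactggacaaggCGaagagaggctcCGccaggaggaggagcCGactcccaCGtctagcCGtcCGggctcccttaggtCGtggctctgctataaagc

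Cd3e, chr9:45009562-45009861, minus strand: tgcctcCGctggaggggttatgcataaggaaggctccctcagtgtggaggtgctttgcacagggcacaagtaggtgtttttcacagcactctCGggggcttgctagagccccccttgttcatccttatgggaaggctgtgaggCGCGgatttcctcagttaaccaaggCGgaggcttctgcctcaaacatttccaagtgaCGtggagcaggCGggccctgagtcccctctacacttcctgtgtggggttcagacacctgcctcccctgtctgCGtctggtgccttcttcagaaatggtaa

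The runs of capitals in Homer2 and Aqp5 are dense over nearly the whole window, whereas in Car4 and Cd3e they are scattered. The GC-box letters GGGCGG were found on either strand in 6 of the 11 promoters and in 35.7% of all promoters, TATAAA in 2 of 11 and in 13.6%, and CCAAT in 1 of 11 and in 37.4%. GGGCGG itself contains a CG pair. A match is a match of letters and not a bound site.

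**Figure D1:**
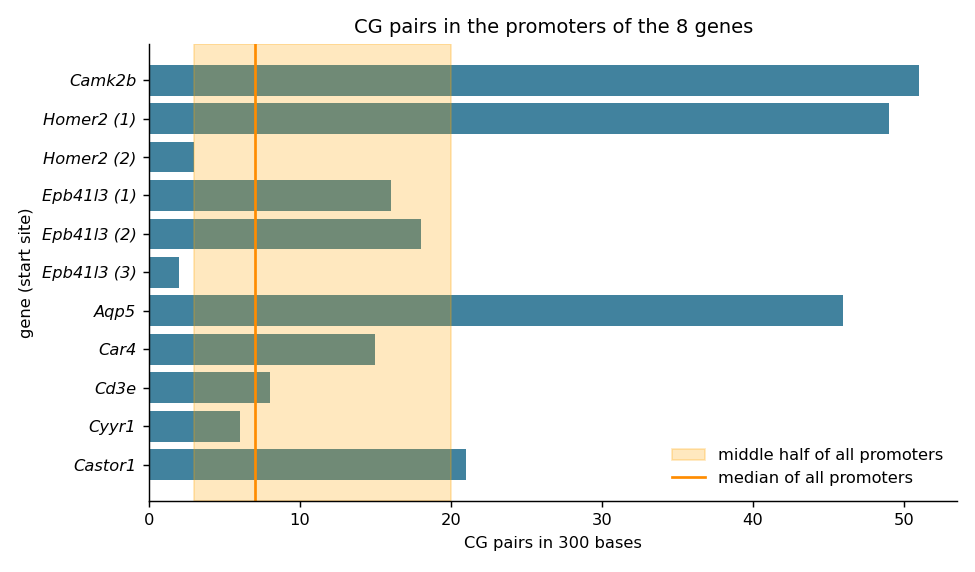
CG pairs per 300-base RefSeq promoter (GRCm38.p6) of the 8 genes, with start sites numbered where a gene has several. The band marks the quartiles of all 32851 promoters, 3 and 20, and the line their median of 7. Camk2b, the first site of Homer2 and Aqp5 reach 46 to 51 pairs.

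In KO cells all 8 genes were lower than in parental cells, with no overlap between the 3 arrays of each group, as were 6.83% of all genes. The differences ran from -0.76 for Aqp5 to -1.85 for Car4 with a median of -0.89 (log2), against 0.00 over all genes. All 8 passed the threshold (limma, Benjamini-Hochberg over 22180 genes), where 0.203% of all genes passed in that direction, a count fixed by the choice of the members. For 5 of them, Camk2b, Homer2, Epb41l3, Aqp5 and Castor1, the adjusted p lay between 0.0442 and 0.0467, just inside it. Leaving out any 1 of the 6 arrays left 2 or 3 of the 8 past the threshold. Car4 and Cd3e passed in all 6 such fits, Cyyr1 in 2, Epb41l3 in 1 and the other 4 in none. With only the 6 arrays of these groups in the fit 3 passed, and with each array centred on its median 4 passed. Fewer cells with a transcript and less transcript per cell cannot be told apart in such bulk RNA.

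Camk2b and Homer2 act in neurons at the receiving side of the synapse, the kinase subunit holding the enzyme at actin filaments and Homer2 linking glutamate receptors to calcium stores. Camk2b signal was 4.57, 4.27 and 4.22 in KO+WT, 4.49, 4.39 and 4.26 in KO+Mut, 3.36, 3.64 and 3.73 in KO and 4.24, 4.56 and 4.34 in parental cells (log2, replicates 1 to 3). The KO arrays stood apart below the other 9, which overlapped one another. The difference of KO from parental cells was -0.80 (SE 0.14), and KO+WT and KO+Mut stood 0.77 and 0.80 above KO (adjusted p = 0.0253 and 0.0141 by limma). Leaving out single arrays kept the 2 rises of Camk2b in 2 and 3 of 6 fits, the rise with wild-type proteins was lost with only its 6 arrays (adjusted p = 0.122), and the fall in KO cells had an adjusted p of 0.130 there.

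The Homer2 means with either add-back lay above the parental mean, though not past the threshold. Its signal was 5.18, 5.50 and 4.74 in KO+WT, 5.13, 5.30 and 4.94 in KO+Mut, 3.90, 3.83 and 3.72 in KO and 4.80, 4.83 and 4.71 in parental cells. All KO+Mut arrays were above all parental arrays, while replicate 3 of KO+WT fell among them. Homer2 was 0.96 lower in KO than in parental cells (SE 0.17) and 1.32 and 1.30 higher than KO in KO+WT and KO+Mut (adjusted p = 0.00203 and 0.00159, kept in all 6 fits without an array for each). Its excess over parental cells, 0.36 and 0.34, did not pass (adjusted p = 0.478 and 0.484).

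Epb41l3, which tethers adhesion molecules to the skeleton under the membrane, showed the same order. Its signal was 5.77, 5.97 and 5.71 in KO+WT, 5.66, 5.95 and 5.61 in KO+Mut, 4.94, 4.53 and 4.59 in KO and 5.45, 5.43 and 5.47 in parental cells. The 3 levels did not overlap: add-back arrays were highest, parental arrays between and KO arrays lowest. The difference of KO from parental cells was -0.76 (SE 0.14), and the rises over KO were 1.13 and 1.05 for KO+WT and KO+Mut (adjusted p = 0.00152 and 0.00177, kept in all 6 fits each). The excess over parental cells of 0.36 and 0.29 did not pass (adjusted p = 0.359 and 0.462).

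**Figure D2:**
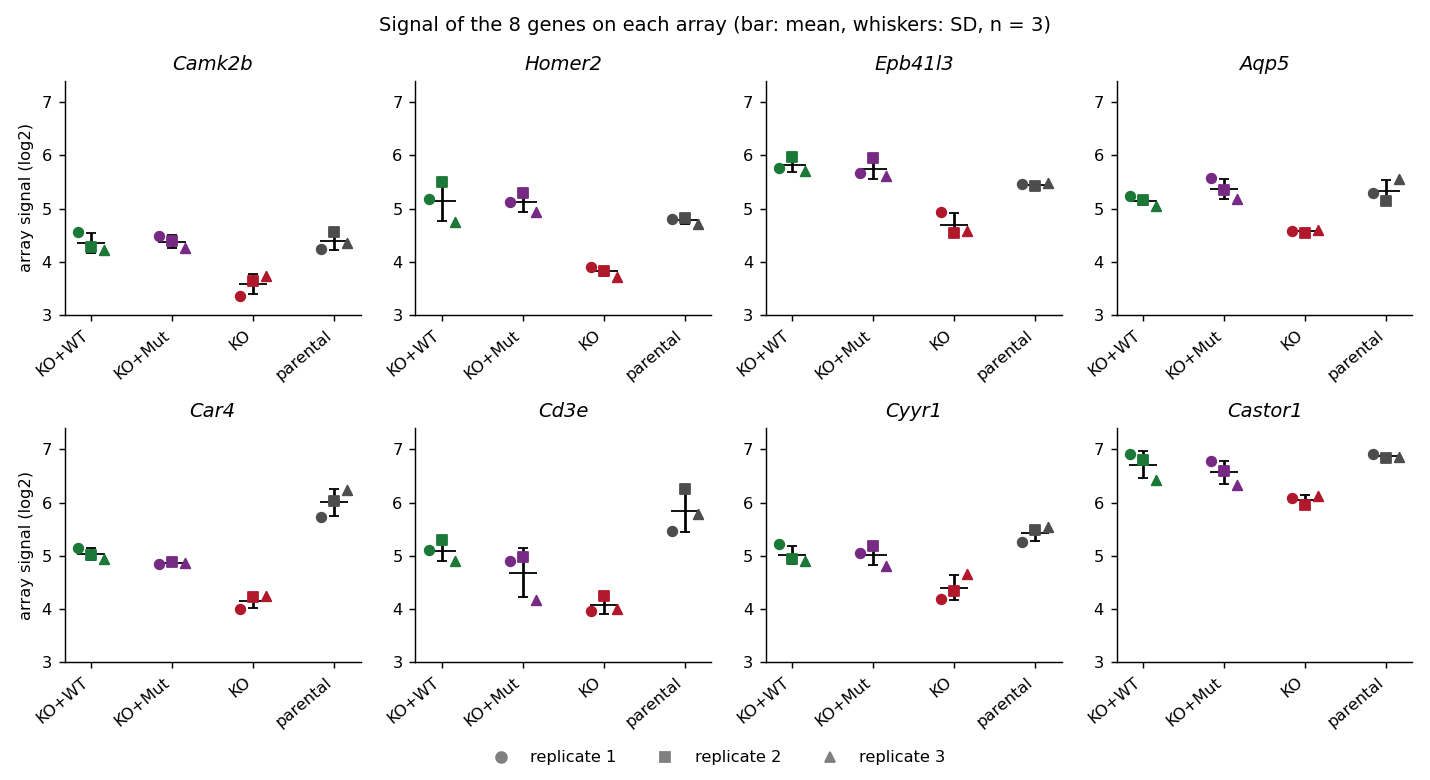
Array signal (log2) of each gene on the 12 arrays, 1 panel a gene. Symbols mark replicates 1 to 3, bars the group mean and whiskers the SD (n = 3). KO arrays are lowest in every panel except that of Cd3e, where KO+Mut replicate 3 (4.16) lies within the KO range of 3.95 to 4.24.

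Aqp5 lets water cross the membranes of secretory and alveolar cells. Its signal was 5.23, 5.16 and 5.06 in KO+WT, 5.57, 5.36 and 5.18 in KO+Mut, 4.58, 4.53 and 4.6 in KO and 5.29, 5.15 and 5.55 in parental cells. The KO arrays lay close together and below all others. The difference of KO from parental cells was -0.76 (SE 0.13), and the rise over KO was 0.57 in KO+WT (adjusted p = 0.0776) and 0.80 in KO+Mut (adjusted p = 0.00972, kept in 5 of the 6 fits and 0.0507 without KO+Mut replicate 2).

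Car4, which turns carbon dioxide into bicarbonate at the cell surface, had the largest fall of the 8. Its signal was 5.15, 5.0 and 4.94 in KO+WT, 4.84, 4.88 and 4.86 in KO+Mut, 4.00, 4.22 and 4.24 in KO and 5.74, 6.03 and 6.24 in parental cells. No group overlapped another, and both add-backs stood between KO and parental cells. The level in KO cells was 0.277 times that in parental cells on a linear scale (log2 difference -1.85, SE 0.14, adjusted p = 4.11e-05). It was 0.88 above KO in KO+WT (adjusted p = 0.00772, kept in all 6 fits) and 0.71 in KO+Mut (adjusted p = 0.0209, lost in all 6 fits, up to 0.0955, and 0.0544 with median centring). Relative to parental cells Car4 was 0.97 lower in KO+WT and 1.14 lower in KO+Mut (adjusted p = 0.00511 and 0.00102, both kept in all 6 fits without an array, the first 0.0669 with only its 6 arrays).

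Cd3e, which carries the activation motif that starts signalling from the T-cell receptor, had a signal of 5.10, 5.29 and 4.89 in KO+WT, 4.91, 4.98 and 4.16 in KO+Mut, 3.95, 4.24 and 4.00 in KO and 5.47, 6.26 and 5.78 in parental cells. KO+WT lay wholly between KO and parental arrays, whereas KO+Mut replicate 3 lay within the KO range. The difference of KO from parental cells was -1.77 (SE 0.23, adjusted p = 0.00589). The differences from KO of 1.03 in KO+WT and 0.62 in KO+Mut did not pass (adjusted p = 0.0645 and 0.278), and that of KO+WT was 0.0346 with only its 6 arrays. Relative to parental cells Cd3e was 1.15 lower in KO+Mut (adjusted p = 0.0328, kept in 1 of the 6 fits and 0.104 with 6 arrays), and in KO+WT the difference was -0.74 (adjusted p = 0.242).

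Cyyr1 signal was 5.21, 4.93 and 4.89 in KO+WT, 5.04, 5.19 and 4.81 in KO+Mut, 4.19, 4.34 and 4.65 in KO and 5.26, 5.48 and 5.53 in parental cells. Both add-backs lay between KO and parental cells with no overlap with either. The difference of KO from parental cells was -1.03 (SE 0.15, adjusted p = 0.0171), and those of KO+WT and KO+Mut from KO were 0.62 each (adjusted p = 0.101 and 0.082). A second probe set of Cyyr1 averaged 2.47, 2.65, 2.24 and 2.50 in KO+WT, KO+Mut, KO and parental cells, close to the arrays' lower quartiles of 2.36 to 2.47, and differed by -0.25 between KO and parental cells with overlapping arrays. With the mean of both probe sets the difference of KO from parental cells was -0.64 and did not pass (adjusted p = 0.137), and with only the 6 arrays compared the adjusted p was 0.0716.

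Castor1 binds the GATOR2 complex until arginine displaces it. Its signal was 6.91, 6.80 and 6.43 in KO+WT, 6.78, 6.59 and 6.34 in KO+Mut, 6.09, 5.95 and 6.12 in KO and 6.91, 6.84 and 6.86 in parental cells. KO arrays were the lowest, and KO+WT overlapped parental cells while KO+Mut did not. The difference of KO from parental cells was -0.82 (SE 0.15), and those of KO+WT and KO+Mut from KO were 0.66 and 0.51 (adjusted p = 0.0633 and 0.139), and that of KO+WT passed in 1 of 6 fits without an array (adjusted p = 0.0270).

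Against KO cells, 4 of 8 genes passed as higher in KO+WT (Camk2b, Homer2, Epb41l3 and Car4), where 0.73% of all genes did, and 5 of 8 in KO+Mut (those 4 and Aqp5), where 1.12% did. The medians of the 8 differences were 0.83 and 0.75, against 0.00 and -0.01 over all genes. Without overlap with KO arrays, 8 were higher in KO+WT and 7 in KO+Mut, at backgrounds of 8.61% and 9.24% of all genes. Without 1 array, 3 to 5 genes passed in KO+WT and 2 to 4 in KO+Mut, the lowest count without KO+Mut replicate 2. These comparisons and the one with parental cells share the KO arrays.

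The share of the KO fall recovered was the rise over KO divided by the gap between parental and KO means, on the log2 scale, so that 100% is the parental level. With wild-type proteins it was 148% for Epb41l3 and 137% for Homer2, 96.4% for Camk2b, 80.6% for Castor1, 76.1% for Aqp5, 60.0% for Cyyr1, 58.0% for Cd3e and 47.5% for Car4. With the SUMO-deficient proteins it was 138%, 135%, 99.7%, 62.7%, 105%, 60.0%, 34.9% and 38.3% for the genes in that order. The medians were 78.3% and 81.2%. Intervals were wide, because the gap itself is uncertain: the 95% Fieller interval of Camk2b ran from 62.5% to 147% in KO+WT and from 65.7% to 151% in KO+Mut. The interval stayed below 100% in both add-backs for Car4 (33.5% to 61.4% and 23.9% to 52.1%), Cd3e (33.1% to 84.4% and 7.68% to 59.5%) and Cyyr1 (31.4% to 91.0% in both). It lay above 100% for Epb41l3 in KO+WT alone (107% to 224%), and for the others it included 100%. The intervals are not adjusted for the number of genes. In the adjusted comparison with parental cells only Car4, and Cd3e in KO+Mut, passed. Cyyr1 did not (adjusted p = 0.351 in KO+WT and 0.311 in KO+Mut by limma), nor did Epb41l3 in KO+WT (0.359) or Cd3e there (0.242). On a linear scale Car4 recovered 31.8% and 23.9% in KO+WT and KO+Mut and Cd3e 41.9% and 23.2%, the lowest shares of the 8 on that scale too.

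**Figure D3:**
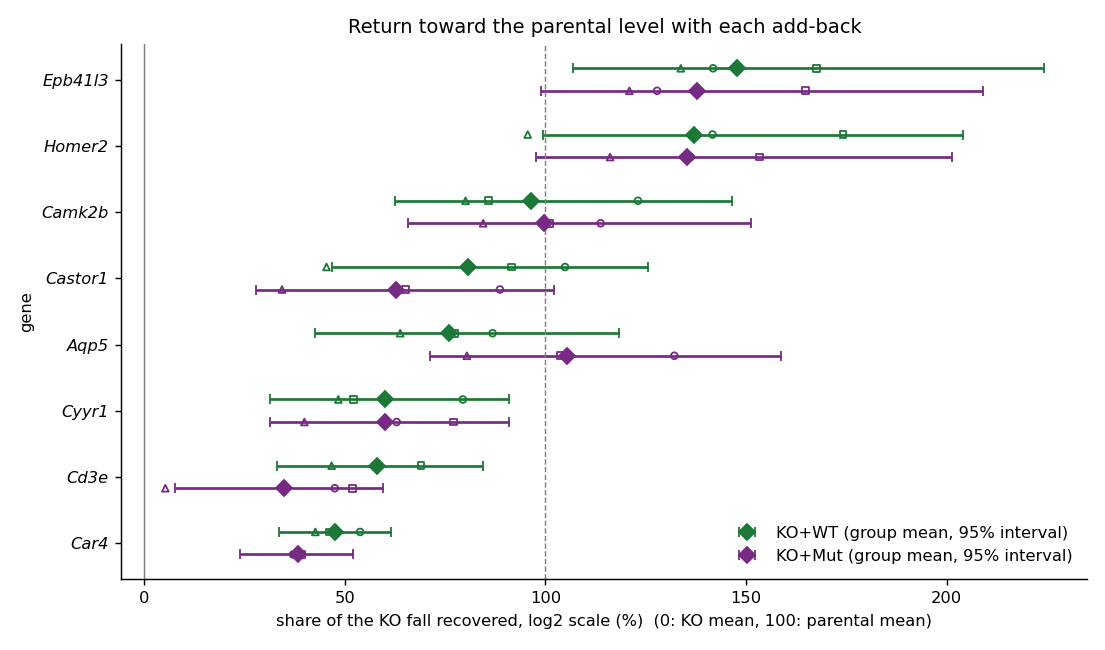
Share of the KO fall recovered by each gene (%, log2 scale), 0 being the KO mean and 100 the parental mean. Diamonds show group means with 95% Fieller intervals, and open symbols the single add-back arrays (circle, square and triangle for replicates 1, 2 and 3). The means of Epb41l3 and Homer2 exceed 100, and the intervals of Car4, Cd3e and Cyyr1, unadjusted for the number of genes, stay below it.

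The 45 genes that passed as lower in KO cells include all 8. The other 37 recovered a median of 29.6% in KO+WT and 27.1% in KO+Mut, ranging from -38.3% to 289% and from -38.7% to 307%. Below 50% were 22 and 23 of those 37 and 1 and 2 of the 8. The 8 had been picked for being regained, so the gap describes that choice.

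Against parental cells 1 of 8 genes, Car4, passed as lower in KO+WT, where 0.23% of all genes did, and 2 of 8, Car4 and Cd3e, in KO+Mut, where 0.338% did. Without overlap, Car4, Cd3e and Cyyr1 were lower and Epb41l3 higher in KO+WT, directions in which 7.8% and 8.05% of all genes did not overlap. In KO+Mut those 3 and Castor1 were lower and Homer2 and Epb41l3 higher, at 9.38% and 8.63% of all genes. Both groups of each comparison entered the choice of the genes.

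KO+Mut and KO+WT cells were both transfected and sorted. Both groups entered the choice of the genes, and picking genes with a higher mean in both favours a small difference between them, so this comparison is a description too. In it 0 of 8 genes passed (limma, adjusted p = 1 for each), and 0 of 8 had an unadjusted p under 0.05. Among all 22180 genes 0% passed, 675 having an unadjusted p under 0.05. The median difference of KO+Mut from KO+WT was -0.05 (log2), with 6 of 8 negative. The largest was that of Cd3e, -0.41 with a 95% interval from -0.91 to 0.09, followed by Aqp5 with 0.22 (-0.07 to 0.51), Car4 with -0.17 (-0.47 to 0.12) and Castor1 with -0.15 (-0.46 to 0.17). For Homer2 it was -0.02 (-0.38 to 0.35), for Camk2b 0.03 (-0.28 to 0.34), for Epb41l3 -0.08 (-0.38 to 0.22) and for Cyyr1 0.00 (-0.33 to 0.33). These intervals leave room for differences of roughly that width, and a missed threshold does not show that both forms act alike. Car4 alone had arrays that did not overlap between the add-backs, lower in KO+Mut, as did 3.62% of all genes.

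The 8 genes varied together within the add-back groups. In KO+WT replicate 3 gave the lowest signal for all 8, on average 0.18 below the group mean, and in KO+Mut replicate 3 gave the lowest for 7 of 8, on average 0.20 below it, Car4 being the exception. Without that array the median share recovered was 90.2% in KO+WT and 92.1% in KO+Mut. The share of all genes that were lowest on these arrays was not counted. Over all genes the deviations on replicate 3 correlated at 0.47 between KO+Mut and KO+WT, so the pattern is not shown to be particular to the 8. Dppa2 and Dppa4 deviated by 0.03 and 0.10 from their group means on KO+WT replicate 3. On KO+Mut replicate 3 they deviated by -0.03 and -0.15, the value of Dppa4 being the lowest of its group, as those of 7 of the 8 genes were. Zscan4e, a marker of the rare cells that resemble 2-cell embryos, was highest on the same arrays, with 9.53, 10.69 and 11.42 in KO+WT, 10.60, 11.06 and 11.63 in KO+Mut, 2.4, 1.87 and 1.90 in KO and 5.59, 7.06 and 6.74 in parental cells. The parts of Dppa2, Dppa4 and Zscan4e in these results were not tested. Over the 12 arrays the 28 pairs of genes had Pearson correlations from 0.48 (Epb41l3 with Car4) to 0.97 (Homer2 with Epb41l3), all positive. After subtraction of group means the median was 0.35, and 24 of 28 were positive. All pairs share the same 12 arrays and their normalization.

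**Figure D4:**
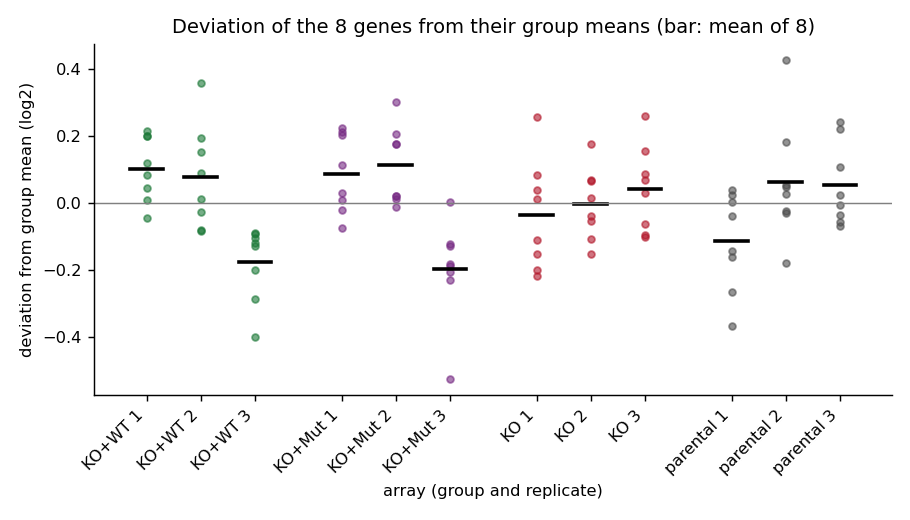
Deviation (log2) of each of the 8 genes from its group mean on every array, with the mean of the 8 as a bar. Replicate 3 of KO+WT and of KO+Mut lie lowest, with means of -0.18 and -0.20.

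The genes outside the 8 whose signal followed their mean profile most closely (each gene centred and divided by its SD) were Ddx4, which encodes the germ-cell RNA helicase, with a Pearson r of 0.96 over 12 arrays, the myosin gene Myo7a (0.94), the cytochrome gene Cyp4f39 (0.94), Pdlim5 of the actin-linked PDZ-LIM family (0.93), Tmem184a (0.92) and Rfng, which encodes a sugar transferase acting on Notch (0.92). Ddx4 averaged 5.35 ± 0.15 in KO+WT, 5.50 ± 0.33 in KO+Mut, 4.1 ± 0.15 in KO and 5.51 ± 0.12 in parental (SD, n = 3 each). The levels of Pdlim5 spanned far less, with 6.57 in KO and 6.93 in parental cells, so that likeness in profile was not likeness in size.

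Close relatives of the 8 genes were read in the same comparisons. The 8 were picked for these differences, so a contrast of the relatives with them describes that choice. Of 76 measured genes in 8 lists of families and pathways, 1 was lower and 0 higher in KO than in parental cells (2 passed with a block for replicate number). In KO+WT 2 were higher and 0 lower than in KO, and in KO+Mut 3 were higher and 0 lower than in KO. Of all genes 0.239%, 0.83% and 1.27% passed either way in these comparisons, and the relatives' median differences were -0.03, 0.02 and 0.01 (log2), close to those of all genes. Counts of 1, 2 and 3 are too small to set the relatives apart from all genes. Between the add-backs 0 of 76 passed.

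Of the kinase relatives of Camk2b, 0 of 3 passed in any comparison: Camk2d differed by -0.54 between KO and parental cells (adjusted p = 0.805) and Camk2g by -0.12 (adjusted p = 0.981). The other Homer genes also stayed outside the threshold, Homer3 with -0.10 and Homer1 with -0.02. In the list of postsynaptic genes 0 of 14 passed in any of the 6 comparisons, with a median of -0.05 in KO against parental cells. Of 5 relatives of Epb41l3, 0 passed, and those of smallest p, Epb41l4a and Epb41l1, pointed the other way with 0.44 and 0.27.

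Among 13 other carbonic anhydrases Car7 and Car6 rose with both add-backs. Car7, a cytosolic enzyme, was 1.05 higher in KO+WT and 0.98 higher in KO+Mut than in KO (adjusted p = 0.00689 and 0.00757; 0.0583 with only the 6 arrays of KO+WT and KO, and 0.0545 without KO+Mut replicate 2). KO and parental cells differed by -0.23 (adjusted p = 0.904). It passed as higher than in parental cells too, by 0.82 and 0.75 (adjusted p = 0.0408 and 0.0445), calls lost under median centring (0.0605 and 0.0674) and in 5 and 6 of 6 fits without an array (up to 0.164 and 0.202). Car6, the secreted enzyme of saliva, was 0.86 and 0.93 higher than KO in KO+WT and KO+Mut (adjusted p = 0.0402 and 0.0194), the first lost in all 6 fits without an array (up to 0.145), the second in 4 of 6 (up to 0.103). Of 11 other aquaporins Aqp8 passed in 1 comparison, with -0.75 in KO+WT against parental cells (adjusted p = 0.0420, lost in all 6 fits without an array, up to 0.171).

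Of 22 genes for amino acid sensing upstream of mTORC1, besides Castor1, Rragd passed. It encodes a Rag GTPase that recruits mTORC1 to the lysosome. Rragd was 0.87 lower in KO than in parental cells (SE 0.14, adjusted p = 0.0259), a fall close in size to that of Castor1, but it differed from KO by -0.12 in KO+WT and -0.21 in KO+Mut (adjusted p = 0.799 and 0.590). It remained 0.99 and 1.09 below parental cells (adjusted p = 0.00566 and 0.00204). The call in KO cells was lost in 5 of 6 fits that left out an array (up to 0.132) and with only the 6 arrays compared (0.123), and that of KO+WT against parental cells was lost with 6 arrays (0.0811).

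Markers of tissues in which the 8 genes are known were read as lists. Of 9 measured T-cell genes outside Cd3e, Lat, an adaptor of the receptor, passed in KO+Mut against KO with 0.93 (adjusted p = 0.0335, kept in 1 of 6 fits without an array, up to 0.150, and 0.0637 with median centring), and the others did not pass in any comparison. Cd3d and Cd3g, partners of Cd3e in the receptor, averaged 3.53 and 2.76 in KO+WT, 3.02 and 2.59 in KO+Mut, 2.69 and 2.52 in KO and 2.86 and 2.34 in parental cells. The summed log2 signal of the 9 ran from 30.4 to 32.1 in KO+WT, 30.6 to 31.2 in KO+Mut, 28.6 to 29.3 in KO and 29.5 to 30.9 in parental cells, lowest in KO cells. In KO and in parental cells 7 of the 9 lay below the array median. Their differences of KO from parental cells ran from -0.51 for Lat to 0.18 for Cd3g. The mean signals of the fibroblast and neuron lists were lowest in KO cells as well. So were those of the Homer, postsynaptic, aquaporin and carbonic anhydrase lists. Those of the lung and gland, pluripotency and amino acid sensing lists, and of the relatives of Camk2b and Epb41l3, were not. Array medians ran from 3.84 to 3.88 with either add-back, 3.73 to 3.81 in KO and 3.77 to 3.82 in parental cells. The part of array level in the list signals was not tested. Fibroblast markers (8 measured) summed to 29.1 to 30.4 in KO+WT, 29.2 to 30.6 in KO+Mut, 28.4 to 29.2 in KO and 30.5 to 31.1 in parental cells, with the largest difference in Pdgfra, -1.24 in KO against parental cells (adjusted p = 0.418). Neuron markers (11 measured) summed to 51.7 to 53.6 in KO+WT, 51.3 to 54.0 in KO+Mut, 51.3 to 51.9 in KO and 51.8 to 53.1 in parental cells. Lung and gland markers (8 measured) summed to 27.4 to 28.3 in KO+WT, 26.6 to 27.5 in KO+Mut, 27.0 to 28 in KO and 26.7 to 27.7 in parental cells. None of the fibroblast, neuron, lung and gland markers passed in any comparison. Scgb1a1 (1.41 in KO and 1.46 in parental cells) and Lum (1.43 and 1.67) lay below the arrays' lower quartiles of 2.36 to 2.47. Such a signal does not show expression. The part of other cell types in the results was not tested.

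The chromosomal neighbours did not pass either. For each gene the nearest measured gene on each side in the RefSeq table of GRCm38.p6 was taken, 16 in all, and 0 of 16 passed in any of the 6 comparisons. Of all genes 0.239% passed either way in KO against parental cells, 0.83% in KO+WT and 1.27% in KO+Mut against KO. At such shares 0 of 16 says little. Their median difference was -0.07 in KO against parental cells, 0.15 in KO+WT against KO and 0.15 in KO+Mut against KO. The medians over all genes were 0.00, 0.00 and -0.01. The largest in KO cells was that of App, the amyloid precursor gene beside Cyyr1, with -0.71 (adjusted p = 0.854), and with wild-type add-back those of Cd3d beside Cd3e with 0.84 (adjusted p = 0.0867) and Aqp6 beside Aqp5 with 0.83 (adjusted p = 0.174). Aqp2, Aqp6 and Cd3d are both relatives and neighbours.

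**Figure D5:**
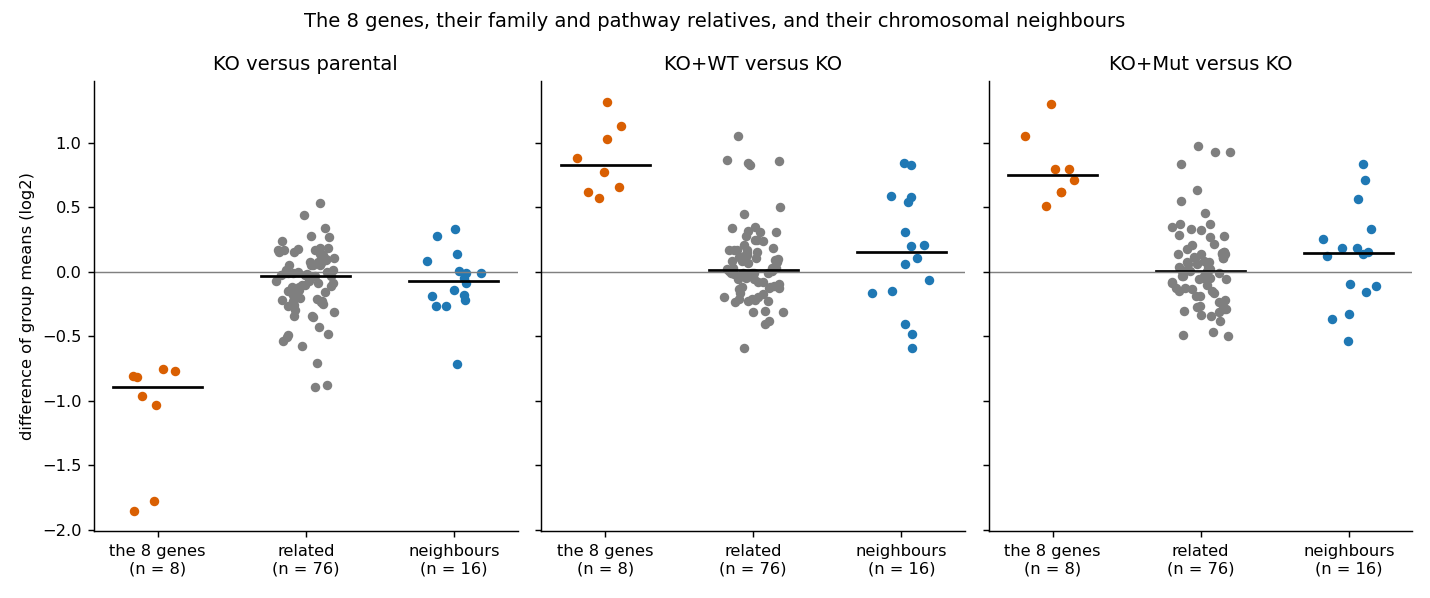
Difference of group means (log2) in 3 comparisons for the 8 genes, 76 measured family and pathway relatives and 16 chromosomal neighbours, each point a gene and each bar a median. The 8 genes, chosen for these differences, have medians of -0.89, 0.83 and 0.75, and the relatives -0.03, 0.02 and 0.01.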

How the data were processed

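Total RNA (100 ng) from 12 samples was labelled for Affymetrix arrays, per the labels' protocols. The authors deposited log2 signals, 1 per probe set and array. Transcriptome Analysis Console is the tool in the submitters' processing notes. No source used here gives its version, normalization, background correction, summarization or genome build, and the log2 scale was read from the values. Of 41345 probe sets 23521 had 1 symbol, 1814 several and 16010 none in GEO's annotation. For a gene with several, that of highest mean was used.

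Groups came from the sample titles. Tests used limma 3.58.1 under R 4.3.3 (1 mean per group fitted with lmFit, then eBayes, all 12 arrays, two-sided, Benjamini-Hochberg over 22180 genes, threshold 0.05). With 3 arrays per group the number of arrays limits the precision. On simulated data for KO against parental cells, 76 of 100 genes changed by 1 (log2) and 99 of 100 changed by 2 were called, with 9 false calls among 21980 genes. The simulated noise was normal and independent between arrays, around 1 mean per gene. Real arrays of the same number deviated together, so these rates need not hold for the data. Fieller intervals used limma's variance. Python 3.11.15 made the tables (pandas 2.3.3) and plots (matplotlib 3.10.9). Alternatives tried were median centring, a second quantile normalization, a filter on low signal, a block for replicate number, eBayes with trend, the 6 arrays compared alone, the mean of probe sets, array weights and leaving out each array.

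The members, lists and tests were chosen with earlier results of these data known. Besides the 8 members, named genes were list members past the threshold or the 2 of smallest p in KO against parental cells, neighbours, the 6 most alike in profile, and Dppa2 and Dppa4. Zscan4e was added after its values were seen, and other list genes, Cd3d and Cd3g among them, are named for their role or size of difference.

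Deviations of same-numbered arrays from group means were correlated over all genes. The correlations exceeded 0.1 for all numbers in KO against parental cells (0.36, 0.15 and 0.42) and in KO+Mut against KO+WT (0.40, 0.21 and 0.47). They did so too for KO+WT (0.33, 0.15 and 0.31) and KO+Mut (0.33, 0.13 and 0.36) against parental cells. For KO+WT and KO+Mut against KO replicate 2 gave 0.06 and 0.08. The main tests ignored replicate number in every comparison. The block for replicate number was run only as an alternative.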

Additional observations from a re-analysis of the deposited data

How the results depend on the processing

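All 8 falls in KO cells, and all 16 rises over KO, kept their direction under every alternative run. The genes were picked for these directions and every alternative used the same arrays, so the kept directions say little. The count of the 8 called lower in KO cells was 4 with median centring, 3 with only the 6 arrays compared and 2 to 3 without an array; it was 8 with the replicate number as a block. For KO+WT against KO it was 7 with the replicate block (Aqp5, Cd3e and Castor1 added) and 3 to 5 without an array, and for KO+Mut against KO 5 with the block and 2 to 4 without an array; these arrays share only a number. Against parental cells the counts of 1 (KO+WT) and 2 (KO+Mut) were 0 and 1 with only the 6 arrays, and 1 and 1 to 2 without an array. The block changed no other call of a member. Between the add-backs 0 of 8 and 0 of 76 relatives passed in every fit. The count of relatives called in KO against parental cells was 2 with the block, 0 with 6 arrays and 0 to 1 without an array; in KO+WT against KO it was 4 with the block, 1 with repeated quantile normalization and with median centring, 0 with 6 arrays and 1 to 2 without an array; in KO+Mut against KO it was 5 with the block and with array weights and 0 to 2 without an array. The median shares recovered ran from 69.6% to 90.2% (KO+WT) and 75.3% to 92.1% (KO+Mut) without an array. On a linear scale they were 74.1% and 78.3%.

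Over all genes, 45 falls in KO cells became 97 with the block, 26 with 6 arrays, 113 with array weights and 18 to 29 without an array. The 162 rises in KO+WT became 353, 71, 221 and 80 to 154, and the 248 in KO+Mut became 480, 195, 432 and 109 to 192, in the same order. With median centring they were 35, 112 and 194, and the share of higher calls moved by more than 10 percentage points: 112 higher and 37 lower for KO+WT, and 194 higher and 72 lower for KO+Mut, against 162 higher and 22 lower, and 248 higher and 34 lower, as deposited.

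Against parental cells, 71 higher and 51 lower for KO+WT and 145 higher and 75 lower for KO+Mut became 237 and 221, and 353 and 342, with the block, 32 and 20, and 128 and 58, with 6 arrays, 113 and 72, and 282 and 173, with array weights, and 34 to 102 and 16 to 31, and 70 to 118 and 34 to 59, without an array; with median centring KO+WT gave 59 higher and 62 lower, which turns the balance of its calls, and KO+Mut 122 and 109.

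Values near 0 changed sign, 19 in all, with adjusted p of at least 0.932. Without an array, KO+Mut against KO+WT ran from -0.038 to 0.13 for Camk2b, -0.22 to 0.16 for Homer2, -0.18 to 0.00066 for Epb41l3 and -0.088 to 0.10 for Cyyr1, which gave 0.090 with the mean of probe sets and 0.060 with array weights. Against parental cells Camk2b ran from -0.14 to 0.062 in KO+WT and from -0.074 to 0.089 in KO+Mut, and Aqp5 in KO+Mut from -0.059 to 0.15, with -0.019 under median centring. Fits with fewer arrays have less power by construction; other causes were not tested.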

Other observations

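The genes with the fewest CG pairs in their richest promoter, Cyyr1, Cd3e and Car4, had the lowest recovered shares with both add-backs. The order of the 8 genes otherwise differed, and a link between CG content and recovery was not tested. Camk2b, Homer2 and Aqp5, whose richest promoters held 46 to 51 CG pairs, recovered 96.4%, 137% and 76.1% of the KO fall with wild-type proteins and 99.7%, 135% and 105% with SUMO-deficient ones. Cyyr1, Cd3e and Car4, with 6, 8 and 15 pairs, recovered 60.0%, 58.0% and 47.5% with wild-type and 60.0%, 34.9% and 38.3% with SUMO-deficient proteins. The share divides by the KO fall, which was deepest for Car4 (-1.85) and Cd3e (-1.77). In KO+WT their rises over KO, 0.88 and 1.03, lay above those of Camk2b (0.77) and Aqp5 (0.57) and below that of Homer2 (1.32). In KO+Mut their rises, 0.71 and 0.62, lay below those of Camk2b and Aqp5 (0.80 each) and Homer2 (1.30). The rise of Cyyr1 was 0.62 in both. Castor1 with 21 pairs recovered 80.6% with wild-type proteins, above Aqp5, and 62.7% with SUMO-deficient ones. Epb41l3, with at most 18, recovered 148% and 138%, the highest of the 8 in both. These values were set side by side after they were known and come from 8 genes measured on the same arrays.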
